A study of Homo sapiens with 6 samples.

Results

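The 51 genes described here encode the machinery that takes a cell from G2 through mitosis: cyclins and CDC25 phosphatases, mitotic kinases, spindle checkpoint and anaphase regulators, kinesins, kinetochore proteins, spindle and cytokinesis proteins, chromosome structure proteins and the transcription factor FOXM1. They were taken from a list of gene symbols, and the probe sets used were those that the array annotation pairs with 1 gene symbol only. Of the 51 genes, 49 were measured, each by 1 probe set, among 22395 genes with such a probe set. BUB1B shared its probe set with PAK6, and CENPA shared both of its probe sets with SLC35F6, so neither of these genes entered a comparison.

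The cells were A549, a human lung adenocarcinoma line long established in culture, treated 24 hours after plating and collected 2 days later. The 3 groups of 2 Affymetrix whole-transcript arrays were vehicle only, Comp.2 at 2 µM and Comp.4 at 2 µM. The series title calls the compounds sequence-specific histone acetyltransferase inhibitors, and the labels name the agent as 646-PIP in one place and 664-PIP in another. Structures of Comp.2 and Comp.4 are not given in the sources used here, and all groups shared 1 cell line, 1 collection time and 1 medium. The labels do not say whether the 2 arrays of a group came from separate cultures, so the p-values measure the spread between these arrays, which may be technical.

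Transcripts of this kind are periodic: they are low in G1, climb as cells replicate their DNA and peak in G2 and mitosis. In resting cells the DREAM complex, which contains the MuvB core, holds their promoters silent through a short element called the cell cycle genes homology region (CHR). In cycling cells the MuvB core joins B-MYB and then FOXM1 at the same promoters, often beside CCAAT boxes bound by NF-Y. The histone acetyltransferase p300 is a known coactivator at many promoters.

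The promoters of most members carried these letters. Members were not picked by sequence, but G2/M genes are known for this element, so the shares below describe the list. RefSeq promoter windows of GRCh38.p14, reaching from 250 bases before to 50 bases after the start, were in hand for 44 of the 51 members, and UBE2C, BIRC5, AURKA, FOXM1, BUB3, TPX2 and TTK had no window. The CHR was searched as TTTGAA or TTTAAA and the CCAAT box as CCAAT, each on both strands, and TTTAAA reads the same on both. The 8 promoters below are shown because they carry the pattern in different arrangements and belong to genes whose values are given below. They run from base -150 to base -1, 5′ to 3′ on the strand of the gene, and the capitals mark CHR and CCAAT letters.
CCNB1: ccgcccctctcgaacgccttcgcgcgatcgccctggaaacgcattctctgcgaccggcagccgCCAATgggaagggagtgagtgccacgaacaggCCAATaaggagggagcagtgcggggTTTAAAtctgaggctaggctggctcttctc
CCNB2: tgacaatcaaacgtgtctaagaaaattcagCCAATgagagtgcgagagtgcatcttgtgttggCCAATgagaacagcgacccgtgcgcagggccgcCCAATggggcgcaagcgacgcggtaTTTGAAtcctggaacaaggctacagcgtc
PLK1: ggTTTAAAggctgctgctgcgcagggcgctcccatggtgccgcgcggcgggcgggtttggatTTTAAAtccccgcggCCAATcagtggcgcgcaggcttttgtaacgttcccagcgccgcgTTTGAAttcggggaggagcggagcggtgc
KIF20A: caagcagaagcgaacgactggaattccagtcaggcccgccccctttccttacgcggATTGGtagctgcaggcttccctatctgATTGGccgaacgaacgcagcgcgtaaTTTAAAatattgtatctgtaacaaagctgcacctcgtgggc
CENPF: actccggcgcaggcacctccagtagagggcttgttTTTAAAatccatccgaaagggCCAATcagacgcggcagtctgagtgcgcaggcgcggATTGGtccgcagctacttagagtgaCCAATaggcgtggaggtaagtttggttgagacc
MKI67: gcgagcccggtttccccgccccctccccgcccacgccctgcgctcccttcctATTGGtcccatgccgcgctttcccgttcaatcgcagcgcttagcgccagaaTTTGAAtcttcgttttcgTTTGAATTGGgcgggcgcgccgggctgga
HMMR: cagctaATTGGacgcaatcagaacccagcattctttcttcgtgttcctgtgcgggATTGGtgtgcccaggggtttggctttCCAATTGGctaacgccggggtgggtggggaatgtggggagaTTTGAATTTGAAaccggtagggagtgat
CENPK: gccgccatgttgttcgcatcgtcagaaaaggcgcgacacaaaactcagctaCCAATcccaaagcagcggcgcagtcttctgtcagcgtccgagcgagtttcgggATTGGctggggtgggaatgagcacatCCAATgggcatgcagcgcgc

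The windows lie at chr5:69167000-69167149 (+) for CCNB1, chr15:59104996-59105145 (+) for CCNB2, chr16:23678739-23678888 (+) for PLK1 and chr5:138178962-138179111 (+) for KIF20A. The other windows are chr1:214603045-214603194 (+) for CENPF, chr10:128126424-128126573 (-) for MKI67, chr5:163460482-163460631 (+) for HMMR and chr5:65563169-65563318 (-) for CENPK. Within the printed bases, the CHR nearest the start of CCNB1, CCNB2, PLK1 and MKI67 began at base -30, -29, -29 and -29. In KIF20A it began at -41, in HMMR at -22, and in CENPF at -115, with a further CENPF match downstream of the start at base 40. In MKI67 the CHR and the CCAAT letters overlapped. CENPK had CCAAT letters and no CHR letters in its window, which says only that these letters were not there.

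CHR letters stood in the windows of 39 of the 44 members (88.6%), against 27.9% of the 27305 genes in the promoter table. CCAAT letters stood in those of 34 of 44 members (77.3%), against 39.7% of all genes, and both motifs stood in the same window for 27 members (61.4%), against 11.2%. Between bases -60 and 0, 26 members (59.1%) had CHR letters, against 6.91% of all genes. All 8 kinesin genes, all 7 spindle and cytokinesis genes in the table and all 6 chromosome structure genes had CHR letters, and the 5 members without any were CCNA2, AURKB, NEK2, BUB1 and CENPK. Wider mitosis genes, listed for comparison, had CHR letters for 57 of 112 genes (50.9%), CCAAT letters for 62.5% and CHR letters between bases -60 and 0 for 17.9%. A list of G1/S and DNA replication genes had CCAAT letters for 57.8%, CHR letters for 7 of 45 genes (15.6%) and the E2F letters TTTCGCGC or TTTGGCGC, searched on both strands, in 16 of 45 (35.6%). The E2F letters were in 3 of 44 members (6.82%), namely CDK1, KIF15 and NUSAP1, and in 1.4% of all genes.

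**Figure D1:**
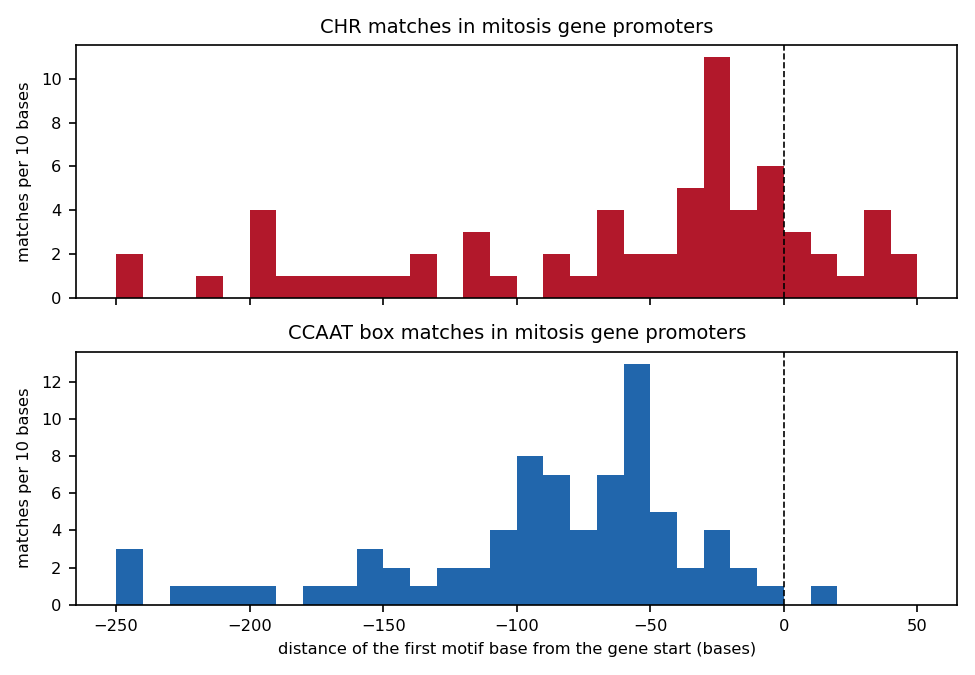
Positions of CHR and CCAAT letters in the promoter windows of the members, in bases from the annotated start (horizontal axis), counted per 10 bases (vertical axis). Over 58 windows (9 members had several), the 67 CHR matches had their median at -31 and the 77 CCAAT matches at -79. The positions overlapped, with lower quartiles of -111 and -106.

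The members gave clear signal on these arrays. Levels are given as the deposited log2 values, in which a step of 1 is a doubling of signal, and they were compared between arrays and not between genes because probe sets differ in response. Of the 49 measured members, 48 had a mean level above the median gene (5.35), and PTTG1 alone lay below it at 4.81. The remaining members had means between 7.14 and 11.30. Across all 6 arrays a member spanned between 0.079 (BUB3) and 0.399 (PLK4) on the log2 scale, with a median of 0.204. The 2 arrays of a group differed by a median of 0.04 for the members under vehicle, 0.059 under Comp.2 and 0.053 under Comp.4. For genes above the median level these gaps were wider, at 0.067, 0.084 and 0.077 in the same order.

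**Figure D2:**
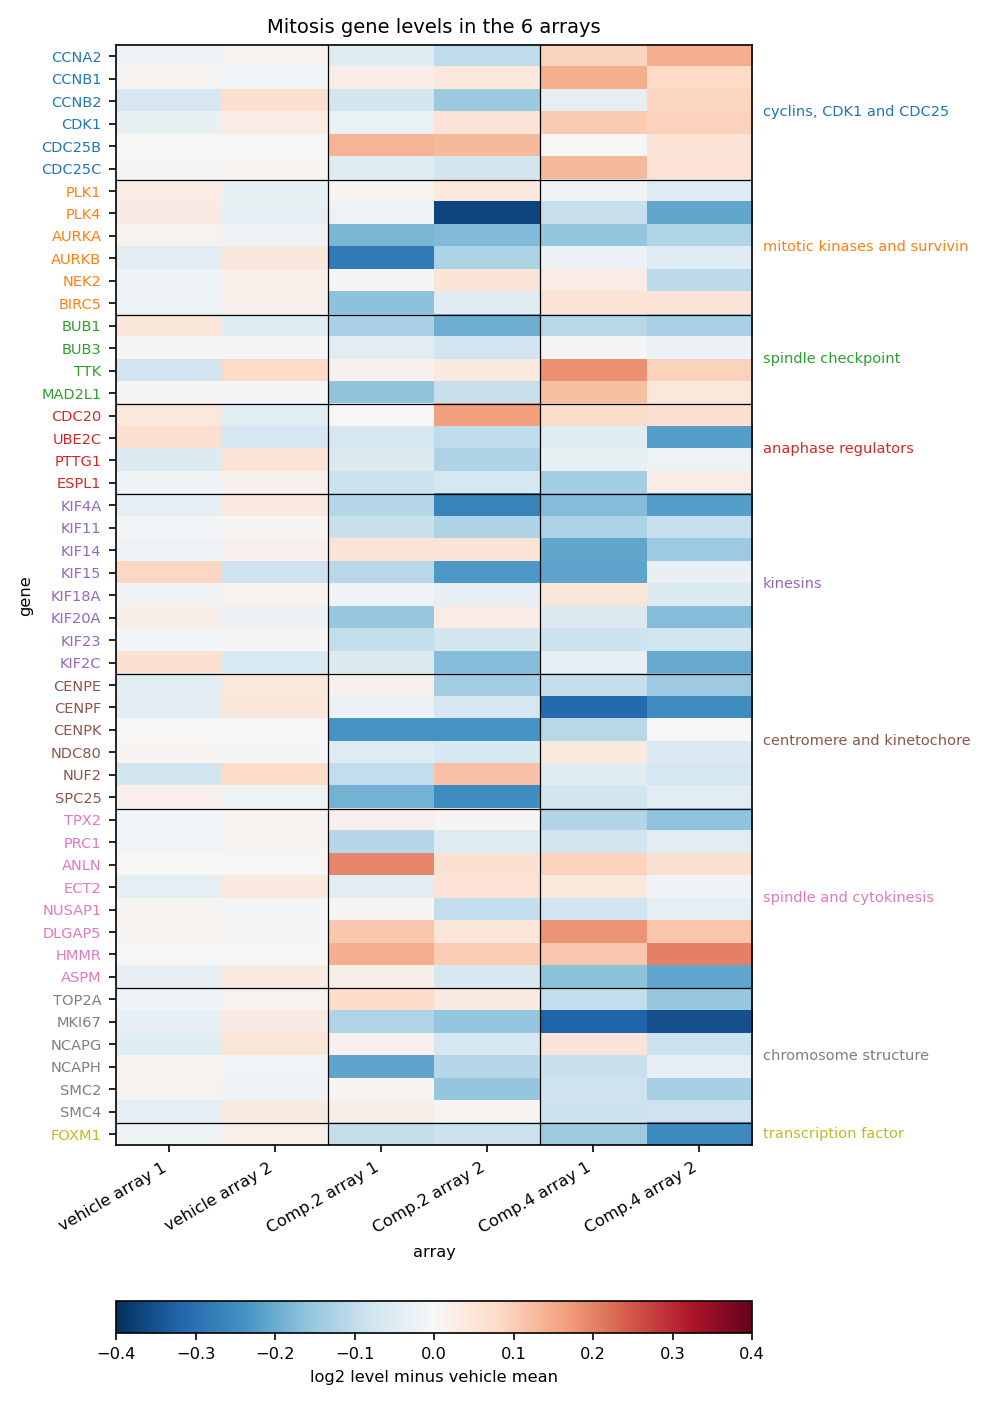
Log2 level of each of the 49 measured members in each of the 6 arrays, drawn as the difference from the vehicle mean of that gene and ordered by role. The colours stay pale for most genes, with MKI67, CENPF and FOXM1 lower under Comp.4, CENPK and SPC25 lower under Comp.2, and HMMR higher under both compounds.

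No member passed the threshold in any comparison, which was an adjusted p under 0.05 from limma with Benjamini-Hochberg adjustment over all 22395 genes. Under Comp.2, 0 members were called higher and 0 lower, against 0.134% and 0.0625% of all genes. At an unadjusted p under 0.05 there were 0 higher and 4 lower (CENPK, SPC25, AURKB and AURKA), against 6.23% and 4.94% of all genes, and the 4 were 8.16% of the members, against 6.53% of genes above the median level. Under Comp.4, 0 were called in either direction, against 0.0536% higher and 0.0938% lower among all genes. At an unadjusted p under 0.05, 0 were higher and 5 lower (MKI67, CENPF, FOXM1, ASPM and KIF14), against 8.64% and 7.88%. The 5 were 10.2% of the members, below the 12.2% of genes above the median level that were lower at that p. Between Comp.4 and Comp.2, 0 were called, against 0.192% and 0.179%, and at an unadjusted p under 0.05 there were 3 higher (MAD2L1, CCNA2 and CENPK) and 4 lower (KIF14, CENPF, MKI67 and TOP2A), where all genes gave 7.52% and 7.45%. The 3 and 4 were 6.12% and 8.16% of the members, against 9.38% and 10.8% of genes above the median level. The 95% intervals were narrow, but they measure the spread between these arrays, which may be technical, and each covers 1 gene at a time. For each compound set against vehicle, and for the compounds set against each other, the 95% interval of each of the 49 members lay within 1.5-fold in either direction, which held for 20848, 20504 and 20575 of all 22395 genes in the same order. The widest bounds were 1.4-fold for PLK4 under Comp.2, 1.42-fold for MKI67 under Comp.4 and 1.33-fold for CENPF between the compounds.

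The calls depended on how the spread was estimated. When limma let the spread vary with the level of a gene, 3 members passed as lower under Comp.4 (CENPF, MKI67 and TPX2), while the calls among all genes went from 33 to 1226. When only genes above the median level were tested, 2 members passed as lower under Comp.4 (CENPF and MKI67). In that setting 839 of the 11197 genes tested were called. With the varying spread, 1 member was higher (CCNA2) and 5 were lower (CENPF, KIF14, MKI67, TOP2A and TPX2) in Comp.4 than in Comp.2. The calls among all 22395 genes in that comparison went from 83 to 1075. None was called in the comparison of Comp.2 with vehicle under any setting that was run. These are whole-culture RNA values, so fewer cells in G2 and mitosis and less RNA per cell cannot be told apart.

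Although no member was called, the differences leaned below 0 against vehicle. Under Comp.2, 33 of 49 members lay below 0 and 16 above (67.3% below, against 48.7% of all genes and 52.8% of genes above the median level). Their median log2 difference was -0.06, against 0.004 over all genes and -0.009 over genes above the median level. Under Comp.4, 35 lay below and 14 above (71.4% below, against 45.1% and 50.6%), also with a median of -0.06, against 0.018 and -0.003. The same background shares apply to the counts below 0 in the subgroups and other lists. With the arrays centred on the brighter protein-coding genes the Comp.4 median was -0.037. Between the compounds, 27 members were above 0 and 22 below, with a median of 0.008, which was the same as over all genes. Both comparisons with vehicle rest on the same 2 vehicle arrays, so their shared direction is not independent. Under Comp.2, 93.9% of the members differed from vehicle by less than 0.2 on the log2 scale, and under Comp.4 it was 95.9%.

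By array, the median over the members, relative to the vehicle mean of each gene, was -0.009 and 0.009 under vehicle, -0.047 and -0.07 under Comp.2, and -0.049 and -0.053 under Comp.4. Both arrays of each compound thus lay below both vehicle arrays, while the median over genes above the median level stayed between -0.016 and 0.003 in all 6 arrays. The 2 vehicle values mirror each other because they are measured from their own mean, and all treated values share that reference. The median level of the brighter protein-coding genes alone was 7.1604 and 7.1686 under vehicle, and 7.1415 and 7.1446 under Comp.4. Counting genes whose arrays did not overlap between groups, 24 members lay lower under Comp.2 (49.0%, against 21% of all genes and 27.1% of genes above the median level) and 7 lay higher (14.3%, against 22.7% and 23.5%). Under Comp.4, 22 lay lower (44.9%, against 22.2% and 31.1%) and 12 higher (24.5%, against 27.2% and 28.4%). Between the compounds, 16 lay higher in Comp.4 (32.7%, against 23.7% of all genes and 26.6% of genes above the median level) and 10 lower (20.4%, against 21.6% and 28.3%). The arrays of a group lay closer together for the members than for genes above the median level. Groups with closer arrays overlap less often for the same difference, so these shares are not matched for spread. They are descriptions, and no test of the list was made.

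**Figure D3:**
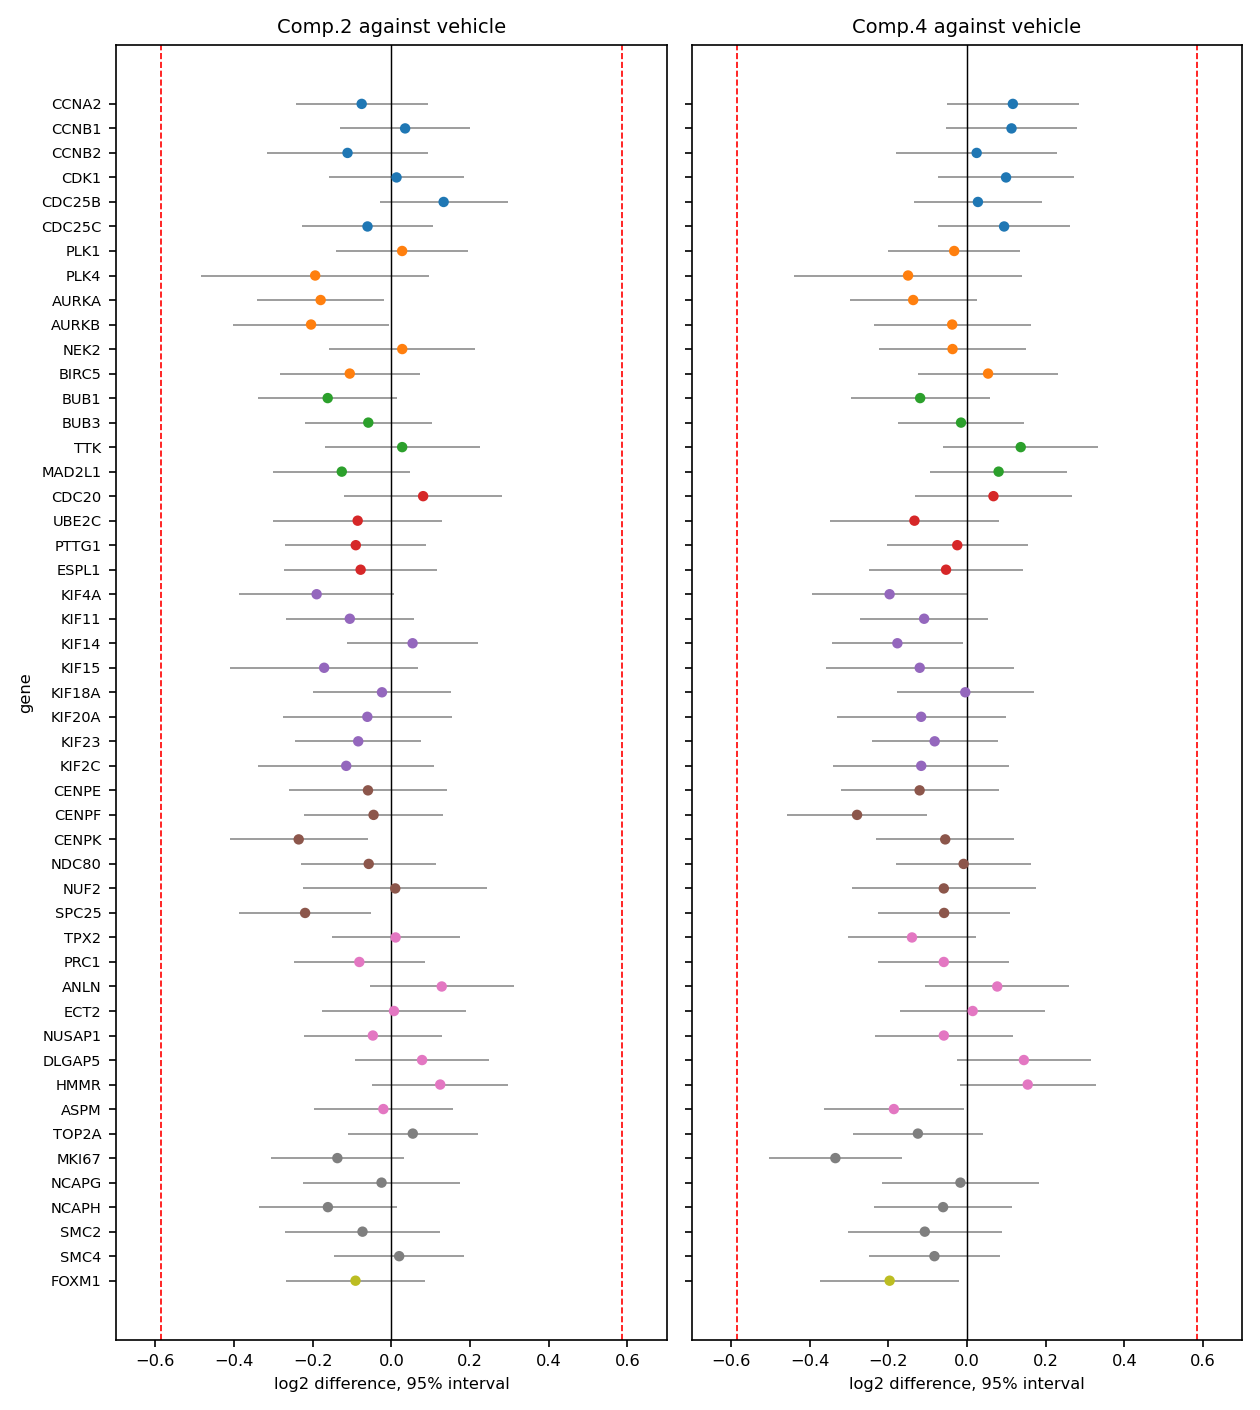
Log2 difference of each measured member from vehicle under each compound (horizontal axes), with 95% intervals from limma as bars, dashed lines at 1.5-fold and the members ordered and coloured by role. All intervals stay within 1.5-fold of no difference, and the values furthest from 0 belong to MKI67 and CENPF under Comp.4 and to CENPK under Comp.2.

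FOXM1, the forkhead factor that activates many G2/M genes, read 8.75 and 8.79 in the vehicle arrays, 8.67 and 8.68 under Comp.2 and 8.63 and 8.52 under Comp.4. All 4 treated arrays lay below both vehicle arrays, and both Comp.4 arrays below both Comp.2 arrays. The difference from vehicle was -0.09 under Comp.2 (adjusted p = 0.695) and -0.20 under Comp.4 (95% interval -0.37 to -0.02, adjusted p = 0.263). The compounds differed by -0.11 (95% interval -0.28 to 0.07).

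The cyclins, CDK1 and the CDC25 phosphatases, which together switch on the mitotic cyclin-dependent kinase, had the largest subgroup median between the compounds. All 6 lay above 0 under Comp.4 with a median of 0.10, whereas under Comp.2 they were split, 3 above and 3 below, with a median of -0.02. The median of Comp.4 against Comp.2 was 0.11, with 5 of 6 above 0, and none of these genes was called. The subgroup median of the 2 Comp.4 arrays was 0.097 and 0.082, and that of the 2 Comp.2 arrays was -0.037 and -0.016.

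CCNA2, cyclin A2, read 9.79 and 9.82 under vehicle, 9.75 and 9.70 under Comp.2 and 9.89 and 9.95 under Comp.4. The Comp.4 arrays were the highest and the Comp.2 arrays the lowest, with no overlap. Against Comp.2 the Comp.4 value was higher by 0.19 (SE 0.07, 95% interval 0.02 to 0.36, adjusted p = 0.282), and against vehicle by 0.12 (adjusted p = 0.463). CCNB1, cyclin B1, the partner of CDK1 at entry into mitosis, read 9.26 and 9.23 under vehicle, 9.27 and 9.29 under Comp.2 and 9.39 and 9.33 under Comp.4. Its arrays followed the order vehicle, Comp.2, Comp.4 without overlap, and the Comp.4 difference from vehicle was 0.11 (95% interval -0.05 to 0.28). CDK1 itself read 9.41 and 9.47 under vehicle, 9.42 and 9.50 under Comp.2 and 9.55 and 9.54 under Comp.4, where vehicle and Comp.2 overlapped and the Comp.4 arrays lay above both, with a difference of 0.10 from vehicle. CCNB2, cyclin B2, differed from vehicle by -0.11 under Comp.2 and by 0.02 under Comp.4. CDC25B, a phosphatase that activates the cyclin-dependent kinases, read 9.37 and 9.37 under vehicle, 9.50 and 9.50 under Comp.2 and 9.37 and 9.42 under Comp.4, so that the Comp.2 arrays lay above the other 4. Its Comp.2 difference, the highest of any member against vehicle in that group, was 0.13 (95% interval -0.03 to 0.30, adjusted p = 0.523), which was not called. CDC25C, its relative, differed by -0.06 under Comp.2 and by 0.09 under Comp.4.

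**Figure D4:**
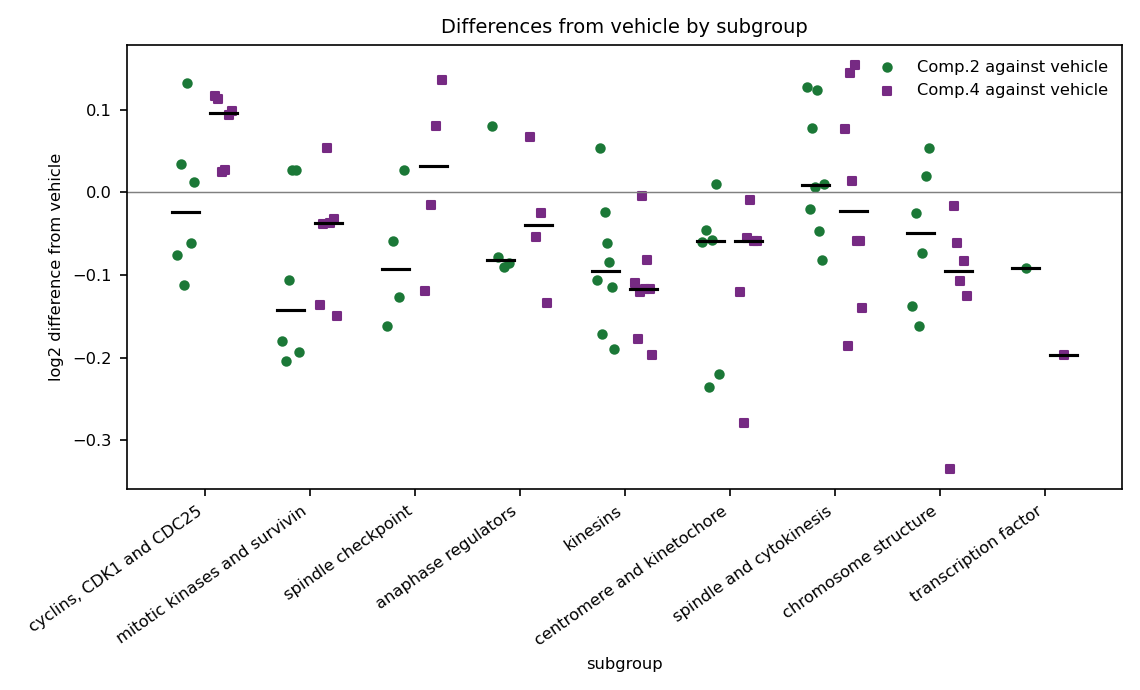
Log2 difference of every measured member by subgroup (vertical axis, 1 point per gene), with the subgroup median as a line, for each compound against vehicle. The cyclin subgroup lies above 0 in all 6 genes under Comp.4, and the kinesins lie below 0 in 7 of 8 genes under Comp.2 and in 8 of 8 under Comp.4.

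The mitotic kinases and survivin leaned lower under Comp.2, with a median of -0.14 and 4 of 6 below 0, against -0.04 and 5 of 6 below under Comp.4. AURKB, the kinase of the chromosomal passenger complex, read 9.49 and 9.58 under vehicle, 9.26 and 9.41 under Comp.2 and 9.51 and 9.49 under Comp.4. The Comp.2 arrays lay below the other 4, with a difference of -0.20 from vehicle (SE 0.08, 95% interval -0.40 to -0.0049, adjusted p = 0.44). AURKA, the centrosomal Aurora kinase, read 8.49 and 8.46 under vehicle, 8.29 and 8.29 under Comp.2 and 8.32 and 8.35 under Comp.4, so that all 4 treated arrays lay below vehicle. Its differences were -0.18 (adjusted p = 0.407) and -0.14 (adjusted p = 0.374). PLK4, which starts centriole duplication, read 7.50 and 7.44 under vehicle, 7.45 and 7.10 under Comp.2 and 7.38 and 7.26 under Comp.4. Its Comp.2 arrays were 0.347 apart, the widest gap of any member within a group, and the difference of -0.19 from vehicle was -0.02 without Comp.2 replicate 2. PLK1, Polo-like kinase of mitotic entry, stayed near 10.76 in all groups, with 10.79 and 10.73 under vehicle, 10.77 and 10.80 under Comp.2 and 10.75 and 10.71 under Comp.4. BIRC5, which encodes survivin, differed from vehicle by -0.11 under Comp.2 and 0.05 under Comp.4, and NEK2, a centrosome kinase, by 0.03 and -0.04.

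Of the 4 measured spindle checkpoint genes, which delay anaphase until chromosomes are attached, 3 lay below 0 under Comp.2 and 2 under Comp.4, and all 4 were higher in Comp.4 than in Comp.2. MAD2L1, the checkpoint protein that inhibits CDC20, read 8.10 and 8.09 under vehicle, 7.93 and 8.0 under Comp.2 and 8.21 and 8.13 under Comp.4. The Comp.2 arrays were the lowest and the Comp.4 arrays the highest, with a difference between the compounds of 0.21 (SE 0.07, 95% interval 0.03 to 0.38, adjusted p = 0.268), the largest positive value of any member in that comparison. TTK, the kinase that recruits checkpoint proteins to kinetochores, read 8.66 and 8.81 under vehicle, 8.75 and 8.77 under Comp.2 and 8.91 and 8.82 under Comp.4. Its Comp.4 difference of 0.14 (adjusted p = 0.462) was close to the gap between its 2 vehicle arrays. BUB1, a kinetochore kinase, read 9.27 and 9.18 under vehicle, 9.10 and 9.03 under Comp.2 and 9.12 and 9.10 under Comp.4, below vehicle in all 4 treated arrays, with differences of -0.16 and -0.12. BUB3, which carries BUB1 to the kinetochore, had the narrowest range over the arrays, with differences of -0.06 and -0.02.

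The 4 anaphase regulators, which time the separation of sister chromatids, had medians of -0.08 under Comp.2 and -0.04 under Comp.4, with 3 of 4 below 0 in each. CDC20, the activator of the anaphase-promoting complex, read 9.47 and 9.38 under vehicle, 9.42 and 9.59 under Comp.2 and 9.50 and 9.49 under Comp.4. Its Comp.2 difference of 0.08 was -0.003 without Comp.2 replicate 2. UBE2C, the ubiquitin-conjugating enzyme of that complex, read 8.29 and 8.16 under vehicle, 8.15 and 8.12 under Comp.2 and 8.18 and 8.0 under Comp.4, with differences of -0.09 and -0.13. PTTG1, securin, was the dimmest member, with 4.79 and 4.90 under vehicle, 4.79 and 4.72 under Comp.2 and 4.82 and 4.83 under Comp.4, and a dim probe set understates a change. ESPL1, separase, differed from vehicle by -0.08 and -0.05.

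The kinesins, motors that build the spindle and carry chromosomes, lay below 0 in 7 of 8 genes under Comp.2 (median -0.10) and in 8 of 8 under Comp.4 (median -0.12). The subgroup medians of the single treated arrays were close to each other, at -0.092 and -0.098 under Comp.2 and -0.106 and -0.119 under Comp.4. KIF4A, a chromokinesin of the central spindle, read 9.0 and 9.08 under vehicle, 8.93 and 8.77 under Comp.2 and 8.87 and 8.82 under Comp.4. All 4 treated arrays lay below vehicle, with differences of -0.19 (95% interval -0.39 to 0.01) and -0.20 (95% interval -0.39 to 0.0002, adjusted p = 0.303). KIF14, a motor of cytokinesis, had the largest difference between the compounds among the kinesins. It read 9.03 and 9.07 under vehicle, 9.11 and 9.10 under Comp.2 and 8.84 and 8.90 under Comp.4, where both Comp.4 arrays were the lowest. The log2 difference of Comp.4 was -0.23 from Comp.2 (SE 0.07, 95% interval -0.40 to -0.07, adjusted p = 0.218) and -0.18 from vehicle (adjusted p = 0.277). KIF11, the motor that separates the spindle poles, differed from vehicle by -0.11 and -0.11. KIF20A and KIF23, motors of the central spindle, differed by -0.06 and -0.08 under Comp.2 and by -0.12 and -0.08 under Comp.4. KIF15 differed by -0.17 and -0.12, and KIF2C, which dismantles microtubule ends, by -0.11 and -0.12.

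Among the 6 measured centromere and kinetochore genes, 5 lay below 0 under Comp.2 and all 6 under Comp.4, with a median of -0.06 in each. CENPF, a large protein of the outer kinetochore that accumulates in G2, read 9.48 and 9.57 under vehicle, 9.50 and 9.45 under Comp.2 and 9.21 and 9.27 under Comp.4. Vehicle and Comp.2 overlapped, and both Comp.4 arrays lay below all the others. The Comp.4 difference was -0.28 against vehicle (SE 0.07, 95% interval -0.46 to -0.10, 1.21-fold lower, adjusted p = 0.157) and -0.23 against Comp.2 (95% interval -0.41 to -0.06, adjusted p = 0.233). The adjusted p against vehicle was 0.0101 when the spread was allowed to vary with the level and 0.0459 among genes above the median level.

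CENPK and SPC25 were instead lowest in the Comp.2 arrays. CENPK, a protein of the inner kinetochore, read 8.62 and 8.62 under vehicle, 8.38 and 8.38 under Comp.2 and 8.51 and 8.62 under Comp.4. The Comp.2 arrays lay below all others, with a difference of -0.24 from vehicle (SE 0.07, 95% interval -0.41 to -0.06, 1.18-fold lower, adjusted p = 0.342), while the Comp.4 and vehicle arrays overlapped. SPC25, a subunit of the NDC80 complex that grips microtubules, read 7.94 and 7.90 under vehicle, 7.73 and 7.67 under Comp.2 and 7.84 and 7.88 under Comp.4, with a Comp.2 difference of -0.22 (95% interval -0.39 to -0.05, adjusted p = 0.35). Its Comp.4 arrays also lay below both vehicle arrays, with a difference of -0.06. NDC80 and NUF2, of the same complex, differed from vehicle by -0.06 and 0.01 under Comp.2 and by -0.01 and -0.06 under Comp.4. CENPE, a kinetochore motor, differed by -0.06 and -0.12.

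**Figure D5:**
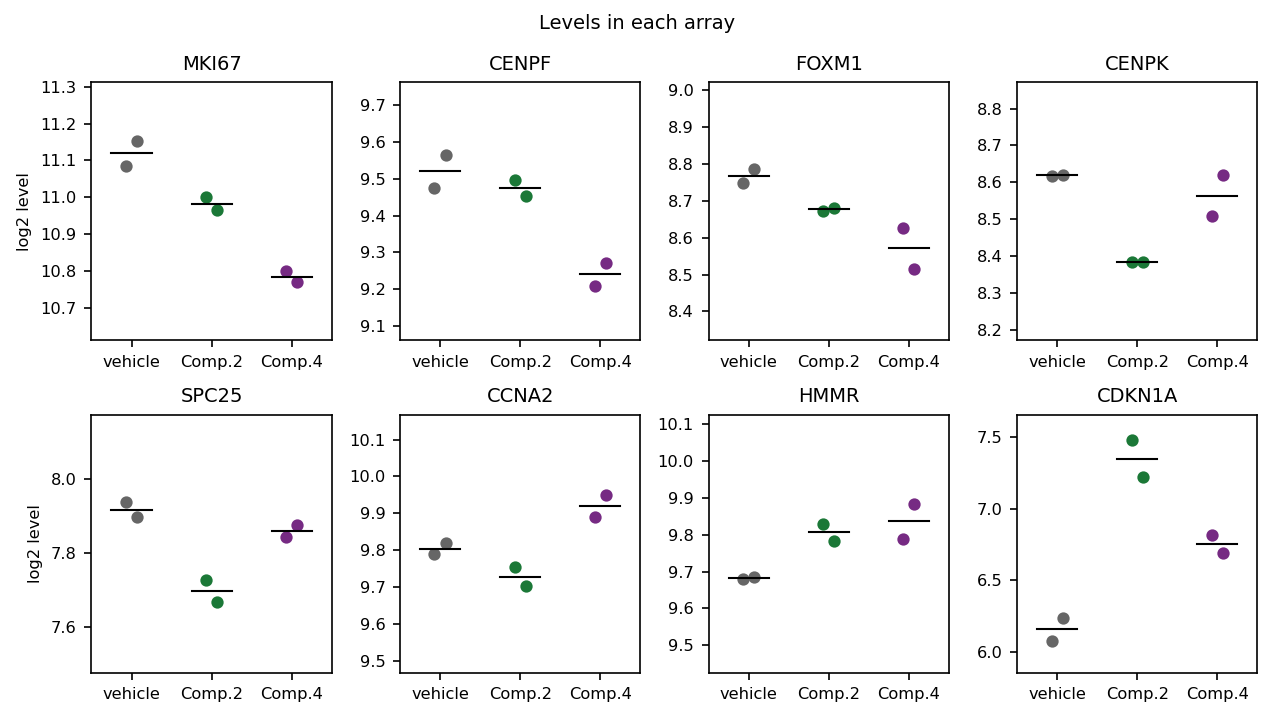
Deposited log2 level of selected members, and of CDKN1A, which is not a member, in the 6 arrays (1 point per array, with the group mean as a line). Each panel has its own vertical range, and that of CDKN1A spans more than the others. MKI67 and CENPF are lowest in the 2 Comp.4 arrays, CENPK and SPC25 are lowest in the 2 Comp.2 arrays, and CCNA2 is highest in the 2 Comp.4 arrays.

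Spindle and cytokinesis genes were the subgroup with the most values above 0 under Comp.2, 5 of 8, and were split 4 and 4 under Comp.4. HMMR, a spindle-associated hyaluronan receptor, read 9.68 and 9.68 under vehicle, 9.83 and 9.78 under Comp.2 and 9.79 and 9.88 under Comp.4. All 4 treated arrays lay above vehicle, with differences of 0.12 (adjusted p = 0.578) and 0.15 (95% interval -0.02 to 0.33, adjusted p = 0.35), the highest difference of any member under Comp.4. DLGAP5, which stabilises spindle fibres, read 9.66 and 9.64 under vehicle, 9.76 and 9.70 under Comp.2 and 9.83 and 9.76 under Comp.4. Before rounding its arrays followed the order vehicle, Comp.2, Comp.4 without overlap, and the differences from vehicle were 0.08 and 0.14 (adjusted p = 0.373 for the second). ANLN, anillin of the cleavage furrow, read 10.16 and 10.17 under vehicle, 10.36 and 10.22 under Comp.2 and 10.26 and 10.22 under Comp.4, again with all treated arrays above vehicle (0.13 and 0.08). ASPM, a spindle pole protein, read 9.37 and 9.44 under vehicle, 9.43 and 9.34 under Comp.2 and 9.24 and 9.20 under Comp.4. Its Comp.4 arrays lay below the other 4, with a difference of -0.19 from vehicle (95% interval -0.36 to -0.01, adjusted p = 0.283). TPX2, the spindle assembly factor that activates AURKA, differed from vehicle by 0.01 and -0.14, and the second passed when the spread was allowed to vary with the level but not under the other settings run. PRC1, which bundles the central spindle, differed by -0.08 and -0.06, NUSAP1 by -0.05 and -0.06, and ECT2, the exchange factor that starts furrowing, by 0.01 and 0.01.

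Chromosome structure genes lay below 0 in 4 of 6 cases under Comp.2 and in 6 of 6 under Comp.4 (median -0.10). MKI67, which encodes the Ki-67 antigen that coats mitotic chromosomes and marks cycling cells, read 11.09 and 11.15 under vehicle, 11.00 and 10.96 under Comp.2 and 10.80 and 10.77 under Comp.4. The groups did not overlap and followed the order vehicle, Comp.2, Comp.4 from high to low. The means were 10.79 ± 0.02 (SD, n = 2) under Comp.4 and 11.12 ± 0.05 (SD, n = 2) under vehicle. This was the largest difference of any member in any comparison, -0.33 (SE 0.07, 95% interval -0.50 to -0.17), or 1.26-fold lower, with an adjusted p of 0.112 from limma. The adjusted p was 0.00114 when limma let the spread vary with the level and 0.0257 among genes above the median level. Under Comp.2 the MKI67 difference was -0.14 (95% interval -0.31 to 0.03), and between the compounds it was -0.20 (95% interval -0.37 to -0.03, adjusted p = 0.273).

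TOP2A, the topoisomerase that untangles sister chromatids, read 11.31 and 11.34 under vehicle, 11.40 and 11.36 under Comp.2 and 11.23 and 11.18 under Comp.4. It lay above vehicle in both Comp.2 arrays and below it in both Comp.4 arrays, and the compounds differed by -0.18 (95% interval -0.34 to -0.01, adjusted p = 0.304). Of the condensin subunits, which compact chromosomes, NCAPH differed from vehicle by -0.16 under Comp.2 and -0.06 under Comp.4, and NCAPG by -0.03 and -0.02. SMC2 differed by -0.07 and -0.11, and SMC4 by 0.02 and -0.08.

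The group means of the 49 members fell into all 6 possible orders. The most frequent was Comp.2 lowest, then Comp.4, then vehicle, in 16 members, followed by Comp.4 lowest, then Comp.2, then vehicle, in 12. Comp.4 was lowest and Comp.2 highest in 7, vehicle lowest and Comp.4 highest in 6, Comp.2 lowest and Comp.4 highest in 5, and vehicle lowest and Comp.2 highest in 3. The 2 compounds, compared at the same dose and day as the only compound pair, were not separated for any member at the threshold, and their differences ran from -0.23 for CENPF to 0.21 for MAD2L1. A p that misses the threshold does not show that the compounds act alike. No interval reached past 1.33-fold, but the intervals rest on the spread between these arrays, which may be technical.

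Split by promoter letters, the 37 measured members with CHR letters had a median of -0.06 under Comp.2 and -0.06 under Comp.4. The 5 without had medians of -0.16 and -0.04. Between the compounds the medians were 0.002 with CHR letters and 0.17 without. With 5 genes in the group without CHR letters, the split was not tested.

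A wider list of 125 measured genes that work with the members was fitted in the same way, with 0 called in any comparison. At an unadjusted p under 0.05, 5 were higher and 4 lower under Comp.2, 9 and 16 under Comp.4, and 14 and 6 between the compounds. As shares these were 4% and 3.2% under Comp.2 (against 6.23% and 4.94% of all genes). Under Comp.4 they were 7.2% and 12.8% (against 8.64% and 7.88%, and 9.63% and 12.2% of genes above the median level). Between the compounds they were 11.2% and 4.8% (against 7.52% and 7.45%, and 9.38% and 10.8% of genes above the median level). Under either compound against vehicle these shares were thus near or below those of the comparable genes. The medians of the wider list were -0.05 under Comp.2, -0.04 under Comp.4 and -0.02 between the compounds. Below 0 lay 68.8% of its genes under Comp.2 and 57.6% under Comp.4. Among 17 genes of the anaphase-promoting complex the Comp.2 differences ran from -0.18 (ANAPC15) to 0.35 (ANAPC13), and ANAPC11 was 0.41 higher in Comp.4 than in Comp.2 (adjusted p = 0.116). Of 11 genes of the MuvB, DREAM and B-MYB complexes, 8 lay below 0 in each comparison with vehicle, from -0.14 (MYBL2, which encodes B-MYB) to 0.09 (LIN37) under Comp.2 and from -0.19 (RBL1) to 0.21 (E2F5) under Comp.4.

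Among 16 regulators of mitotic entry, CKS2, a small subunit that binds the cyclin-dependent kinases, came closest to a call. It read 9.73 and 9.76 under vehicle, 9.58 and 9.59 under Comp.2 and 10.08 and 10.08 under Comp.4, so that the compounds lay on opposite sides of vehicle. Comp.4 exceeded Comp.2 by 0.50 (SE 0.07, 95% interval 0.34 to 0.66, adjusted p = 0.0504) and vehicle by 0.33 (adjusted p = 0.108). Under Comp.2 the highest of these regulators was CDK7, of the kinase that activates CDK1, at 0.32, and under Comp.4 the lowest was GTSE1 at -0.16. Of 16 cohesin and condensin genes, 15 lay below 0 under Comp.2, with 1 lower and 1 higher at an unadjusted p under 0.05 (6.25% each). Those shares were 4.94% and 6.23% among all genes, and 6.53% and 7.16% among genes above the median level. Under Comp.4, 14 lay below 0, the median was -0.15 and 6 were lower at that p (37.5%). There the share lower was 7.88% among all genes and 12.2% among genes above the median level. STAG1, a cohesin subunit, was the lowest under Comp.4 at -0.29 (adjusted p = 0.149), and MAU2 was lowest under Comp.2 at -0.23. The highest were ESCO2 at 0.20 under Comp.2 and NCAPH2 at 0.07 under Comp.4. Among 32 other kinetochore genes the range was -0.26 (CENPH) to 0.19 (CENPW) under Comp.2 and -0.24 (CENPI) to 0.29 (CENPQ) under Comp.4. Among 33 other spindle and centrosome genes it was -0.16 (KIF22) to 0.22 (KIFBP) under Comp.2 and -0.32 (PCNT, pericentrin, adjusted p = 0.118) to 0.17 (KIFBP) under Comp.4.

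Genes of the preceding G1/S and DNA replication programme, listed for comparison, also had 0 calls. Under Comp.2, 43 of 52 lay below 0 with a median of -0.10, and 13 were lower (25%, against 4.94% of all genes and 6.53% of genes above the median level) and 0 higher (against 6.23%) at an unadjusted p under 0.05. Under Comp.4, 36 lay below 0 with a median of -0.08, and 11 were lower (21.2%, against 7.88% and 12.2%) and 2 higher (3.85%, against 8.64%) at that level. The lowest values were -0.35 for E2F1, the S-phase transcription factor, under Comp.2 and -0.51 for DTL, which helps degrade CDT1, under Comp.4 (adjusted p = 0.0749). The E2F1 arrays under Comp.2 read 7.56 and 7.13, and its difference was -0.13 without Comp.2 replicate 2, where MCM3, a helicase subunit, was lower at -0.32. The highest were CCNE2 at 0.18 under Comp.2 and CCND2 at 0.36 under Comp.4. CCND2 was dim, with 3.96 and 3.76 under vehicle and 4.33 and 4.11 under Comp.4, below the median gene (5.35).

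Of 6 measured inhibitors of cyclin-dependent kinases, 1 was called. CDKN1A, which encodes the inhibitor p21, read 6.08 and 6.24 under vehicle, 7.48 and 7.22 under Comp.2 and 6.82 and 6.69 under Comp.4. It rose under Comp.2 by 1.19 (SE 0.11, 95% interval 0.92 to 1.46, 2.28-fold, adjusted p = 0.0234), and its Comp.4 difference of 0.60 was not called (adjusted p = 0.0993). The compounds differed by -0.60 (adjusted p = 0.1). The call was lost in 9 of 14 alternative settings, including the removal of any single array, with adjusted p between 0.0508 and 0.212 in those settings. The part of CDKN1A in the members' values was not tested.

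The cell type was checked against marker genes. All 11 epithelial and A549 markers, from KRT19 to ALDH1A1, were measured between 6.16 and 12.45. Fibroblast markers lay between 2.70 and 5.54 (7 measured) and endothelial markers between 3.86 and 6.40 (7 measured), and the leukocyte markers other than CD68 lay between 2.64 and 6.20 (7 measured). CD68, a lysosomal protein of macrophages that other cells also make, reached 9.29 and rose under Comp.2 by 0.67 (adjusted p = 0.0412), a call that was lost in 9 of 14 alternative settings, including the removal of any single array, with adjusted p between 0.0857 and 0.32 in those settings. Array medians ran from 4.55 to 4.56, which means that all arrays had been put on 1 scale before deposit and that a change common to most transcripts would not show.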

How the data were processed

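The deposited table, made by the authors, gives log2 values of 53617 probe sets in each of the 6 arrays. The submitters' processing notes name Transcriptome Analysis Console 2.0, Affymetrix Expression Console 1.3.1 and RMA without assigning steps, and no scanner files or detection calls were used here. RMA equalises the arrays and shrinks fold changes of dim probe sets. In the platform annotation 23871 probe sets had 1 symbol, 1842 had several and 27904 none. A RefSeq table of GRCh38.p14 matched 22569 of the single-symbol probe sets and updated 90 symbols. The brightest probe set stood for each of the 632 genes with several.

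All 22395 genes were fitted with limma 3.58.1 in R 4.3.3 (1 mean per group, moderated tests, two-sided), which was checked on simulated data. The 3 residual degrees of freedom and the number of arrays limit precision, and an exact permutation of 2 against 2 arrays cannot go below p = 0.333. Array values are given for the 5 lowest and 5 highest members of each comparison, without every interval or every difference between the compounds. Differences are given for most other members and for selected extremes of the other lists. The 51 members, the wider lists and the tests were chosen with earlier results of these data known. Arrays with the same replicate number did not deviate together (correlations of -0.042 to 0.029), so the numbers were not used as pairs. Alternatives varied the variance model, the genes tested, the probe set rule, the centring, the replicate block and the arrays included.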

Additional observations from a re-analysis of the deposited data

How the results depend on the processing

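Of 1160 values recomputed under 14 alternative settings for 83 named results, 1114 kept their direction and their side of the threshold, 33 gained a call, 9 lost one (all CDKN1A under Comp.2) and 4 turned direction. The marker CD68, whose Comp.2 call was also lost in 9 of 14 settings, was not among the 83. The gains came mainly from the variance trend (19) and from testing brighter genes only (11). Under the variance trend 3 members were lower in Comp.4 against vehicle, where 1226 of 22395 genes were called. In Comp.4 against Comp.2, 1 member was higher and 5 were lower, where 1075 of 22395 genes were called. With brighter genes only, 2 members were lower in Comp.4 against vehicle, where 839 of 11197 genes were called. The number of members called was 0 under the other settings. The median over the members ran from -0.07 to -0.047 for Comp.2 against vehicle when 1 array was left out, from -0.058 to -0.048 for Comp.4 against vehicle and from 0.001 to 0.041 for Comp.4 against Comp.2. With the arrays centred on brighter protein-coding genes it was -0.037 for Comp.4 against vehicle and 0.026 for Comp.4 against Comp.2. Leaving out 1 array, CDC20 under Comp.2 ran from -0.003 (without Comp.2 replicate 2) to 0.164, CDKN1B under Comp.4 from -0.068 to 0.029 (without Comp.4 replicate 2) and NCAPH2 under Comp.4 from -0.015 (without vehicle replicate 1) to 0.163. CDKN1B was 0.002 with centred arrays. The cause was not tested.

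With the replicate block, 0 members were called in each comparison and the medians stayed at -0.061, -0.058 and 0.008. Calls among all genes went from 44 to 15 for Comp.2, from 33 to 4 for Comp.4 and from 83 to 0 between the compounds. The numbers are not known to pair the arrays. With 2 arrays a group, a member would have needed a difference well above its standard error (median 0.074) to be called.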

Other observations

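BUB1B and CENPA, which entered no comparison, were measured only together with another gene. BUB1B encodes the checkpoint kinase BubR1, and the probe set that it shares with PAK6 read 7.25 and 7.24 under vehicle, 7.28 and 7.35 under Comp.2 and 7.22 and 7.36 under Comp.4. CENPA encodes the histone variant that marks centromeres. Its first probe set shared with SLC35F6 read 9.84 and 9.83 under vehicle, 9.87 and 9.98 under Comp.2 and 9.83 and 9.79 under Comp.4. The other read 8.24 and 8.39 under vehicle, 8.15 and 8.10 under Comp.2 and 8.42 and 8.24 under Comp.4. How much of each signal came from which gene cannot be told from these values.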
